A study of Ananas comosus with 48 samples.

Results

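miR528 and miR398 are small RNAs that act on messenger RNAs for copper proteins. The rows examined here were the mature sequences named miR528a-5p, miR528c-3p and miR398a-3p, which are 3 of the 190 mature sequences listed for the pineapple (Ananas comosus) shoot apex. They were chosen by name, with earlier results of these data known, and their counts were followed through all 16 groups of treatment and sampling. Plants of cultivar MD1 (PRI 73-50) grown in a commercial field received either 10 ml of water, as the control, or 50 mg of ethephon in the same volume, put into the heart of the plant. Ethephon breaks down to ethylene and is used to force pineapple to flower. The stem apex was sampled at a time labelled 6 h, once a day up to day 6 and again on day 8. There were 3 libraries per group, so that water and ethephon had 24 libraries each and 48 in all. Each library was made from 3 apices that still bore leaf primordia. Plants of the 6 h sampling were harvested in the morning, shortly after treatment. Their trimmed stems were kept on ice, and 6 h marks the end of processing, later in the day than at the other samplings. No miR is a sure marker of a single cell type, so the apex label was not checked against markers.

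In plants a miR guides an Argonaute protein to messenger RNAs with a nearly complementary site, which are then cut or less translated. miR528 is found in monocots. In rice its targets include ascorbate oxidase, a copper enzyme of the cell wall, and in maize it acts on laccases, copper enzymes that polymerise lignin. miR398 in Arabidopsis acts on the copper/zinc superoxide dismutases and on the chaperone that loads them with copper. With miR397 and miR408 it forms the group that rises when copper is scarce, so that the metal is kept for plastocyanin in the chloroplast. Messenger RNAs of these targets were not analysed here.

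The mature sequences are shown because 2 of the 3 names rest on shared or nearly shared letters. Capitals mark the seed, bases 2 to 8 from the 5′ end.
miR528a-5p: uGGAAGGGgcaugcagaggag
miR528c-3p: cCUGUGCUcgccccuuccacc
miR528a-3p: cCUGUGCUugccucuuccacc
miR398a-3p: uGUGUUCUcaggucaccccuc
miR398a-5p: gGAGUGCCaucugagaacaca
The miR528a-5p sequence was listed under 3 names, miR528a-5p, miR528b-5p and miR528c-5p, so its reads cannot be assigned to a single gene. miR528c-3p had its own row. It differed from miR528a-3p, which also stands for miR528b-3p, by the substitutions U9C and U13C, with miR528a-3p as the reference and positions counted from the 5′ end. The 2 sequences had the same seed, and no other listed sequence had it. Placed against miR528a-5p with a 2-base overhang at the 3′ ends, miR528c-3p gave 16 Watson-Crick pairs over 19 positions with 3 unpaired, and miR528a-3p gave 16 with 1 G-U pair and 2 unpaired. These 5p and 3p sequences are opposite arms of a precursor hairpin, so they are not independent measures of miR528. The seeds of miR528a-5p and miR398a-3p occurred in no other listed sequence. miR398a-5p is shown as the opposite arm of miR398a-3p. Placed with the same 2-base overhang, they gave 12 Watson-Crick pairs, 1 G-U pair and 6 unpaired positions. That placement does not measure how well these arms pair. The last letters of miR398a-5p, cugagaacaca, pair in full with the first letters of miR398a-3p when the arms are placed end to end, a placement that was not counted.

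Library totals in listed miRs ran from 18581 to 91791 counts with a median of 61482. The lowest was replicate 2 of ethephon on day 5. Listed miRs were 0.182% to 0.616% of the sequencing tags. Of the 127 sequences with a count, miR528a-5p ranked 27 with 1780 counts over the 48 libraries. miR528c-3p ranked 56 with 241 and miR398a-3p ranked 74 with 41. The low-count filter passed 57 sequences, among them both miR528 members, and miR398a-3p was below it. Levels are given in CPM, the count of a sequence scaled to a library of 1000000 listed miR counts, on the scale of trimmed mean of M-values (TMM) factors, as mean ± SD with n = 3 libraries per group. A change is called differentially expressed (DE) at an edgeR adjusted p under 0.05 over these 57 sequences. In whole apices, a lower level in each cell and fewer cells holding a miR cannot be told apart.

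miR528a-5p, the arm that guides cleavage of the oxidase targets in rice, was higher in ethephon than in water apices when the 8 samplings were averaged, and most so on day 8. The mean was 722 ± 450 CPM in the 24 ethephon libraries and 526 ± 345 in the 24 water libraries. The averaged log2 fold change of ethephon over water was 0.48 (SE 0.18, edgeR adjusted p = 0.0287), and the mean was higher in ethephon at 6 of 8 samplings. Libraries of the treatments overlapped at all 8 samplings. Of the 57 sequences, from 8 (day 2) to 20 (days 5 and 8) did not overlap at a sampling. A DE call was as common elsewhere, since 42.1% of the 57 sequences were DE in this averaged comparison and 1 of the 2 tested members was. The median log2 fold change of the 57 sequences was -0.05.

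At 6 h miR528a-5p was high under both treatments. The water libraries held 907, 1019 and 690 CPM. The ethephon libraries held 1708, 1042 and 714 CPM. The ranges overlapped and the log2 fold change was 0.40 (SE 0.46, edgeR adjusted p = 0.651), or 0.021 without replicate 1 of ethephon.

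On day 1 the order was the opposite, with a higher mean in water. The water libraries held 1461, 1189 and 643 CPM. The ethephon libraries held 650, 787 and 379 CPM. The ethephon libraries all lay below the 2 higher water libraries, and replicate 3 of water lay between them, so that the ranges overlapped. The log2 fold change of -0.83 (SE 0.48) was not DE (edgeR adjusted p = 0.377).

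On days 2, 3 and 4 the treatments kept no order in miR528a-5p. Day 2 had 200, 225 and 464 CPM in water and 760, 379 and 583 CPM in ethephon. Day 3 had 299, 128 and 248 CPM in water and 498, 157 and 194 CPM in ethephon. On day 3 both treatments had their lowest mean, at 225 ± 87.8 CPM in water and 283 ± 187 CPM in ethephon. Day 4 had 611, 295 and 367 CPM in water and 213, 253 and 465 CPM in ethephon. The log2 fold changes on these days were 1.00 (SE 0.55), 0.34 (SE 0.57) and -0.46 (SE 0.52), and none was DE. Single libraries set the direction on day 3, where the value was -0.34 without replicate 1 of ethephon, and the size on day 4, where it was -0.096 without replicate 1 of water and 0.13 without all libraries of replicate 1.

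On days 5, 6 and 8 the ethephon mean was above the water mean. Day 5 had 342, 533 and 742 CPM in water and 1064, 1120 and 721 CPM in ethephon. Day 6 had 175, 469 and 584 CPM in water and 964, 992 and 370 CPM in ethephon. On both days 2 of the 3 ethephon libraries lay above all the water libraries, and replicate 3 of ethephon lay inside the water range. The log2 fold changes of 0.81 (SE 0.49) and 0.92 (SE 0.50) were not DE.

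Day 8 was the only sampling at which miR528a-5p was DE in this fit. The water libraries held 169, 258 and 612 CPM, from 8, 26 and 48 counts. The ethephon libraries held 1909, 1006 and 388 CPM, from 95, 60 and 23 counts. Replicates 1 and 2 of ethephon were above all the water libraries, while replicate 3 of ethephon lay below replicate 3 of water. The log2 fold change was 1.61 (SE 0.49, edgeR adjusted p = 0.0166). Both tested members, which are not independent as arms of a hairpin, were DE on this day. The share over the 57 sequences was 31.6%, and their median log2 fold change was 0.05.

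**Figure D1:**
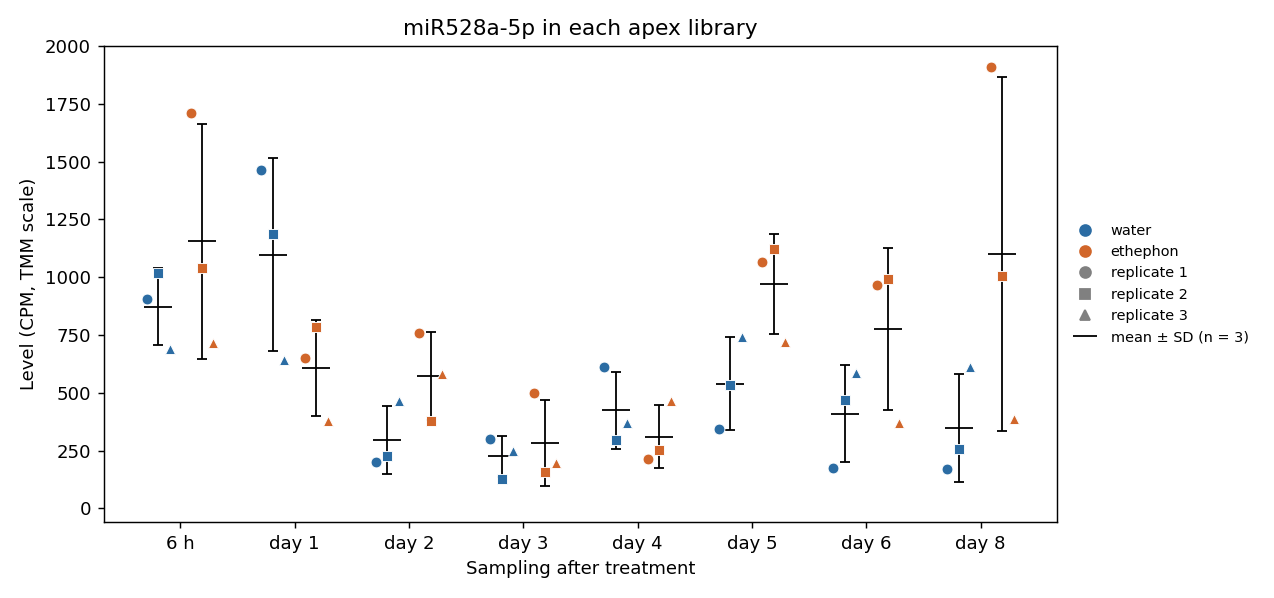
Level of miR528a-5p in CPM on the TMM scale in each library at the 8 samplings, with water in blue and ethephon in orange, a symbol shape for each replicate number, and black bars for the mean ± SD of 3 libraries. Both means were lowest on day 3, at 225 CPM in water and 283 CPM in ethephon, and the ethephon mean reached 1101 CPM on day 8 with a wide spread, against 346 CPM in water.

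The day 8 and averaged calls rested on single libraries. Without replicate 1 of ethephon the day 8 log2 fold change was 0.97 (edgeR adjusted p = 0.171), and without replicate 1 or 2 of water it was 1.26 (edgeR adjusted p = 0.103) and 1.44 (edgeR adjusted p = 0.0647). Without replicate 3 of water it was 2.29. The averaged difference lost its call when any of 5 single libraries was left out, namely replicate 1 of ethephon at 6 h (0.43), on day 3 (0.39) or on day 8 (0.39), replicate 3 of ethephon on day 4 (0.42), or replicate 2 of water on day 3 (0.44). Without all libraries of replicate 1 it was 0.18 (edgeR adjusted p = 0.485), without those of replicate 2 it was 0.44 (edgeR adjusted p = 0.204), and without those of replicate 3 it was 0.80 (edgeR adjusted p = 0.000541). A two-sided permutation test of the mean log2 CPM of 24 against 24 libraries, which includes the time course in its spread, gave a difference of 0.43 with an unadjusted p = 0.1, and 0.16 with p = 0.486 for miR528c-3p. On the scale of all sequencing tags, in which the median of the 57 sequences moved from -0.05 to -0.17, the averaged log2 fold change of miR528a-5p was 0.34 (edgeR adjusted p = 0.139) and that of day 8 was 1.28 (edgeR adjusted p = 0.0733).

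The time course of miR528a-5p was larger than the spread between libraries within each treatment. The level changed over samplings in water (F test, edgeR adjusted p = 0.00242), as did that of 47.4% of the 57 sequences, and in ethephon (edgeR adjusted p = 0.00294), as did that of 50.9%. Without all libraries of replicate 2 these values were 0.216 and 0.149. In water it fell from 1098 ± 417 CPM on day 1 to 346 ± 235 CPM on day 8, a log2 change of -1.61 (SE 0.50, edgeR adjusted p = 0.0137). This change was DE for 19.3% of sequences. It was not DE when replicate 1 of day 1 (-1.36, edgeR adjusted p = 0.0852) or replicate 1 or 2 of day 8 (-1.32 and -1.37, edgeR adjusted p = 0.116 and 0.0822) was left out. In ethephon the level went from 605 ± 207 CPM on day 1 to 1101 ± 765 CPM on day 8, a log2 change of 0.83 (SE 0.48, edgeR adjusted p = 0.276), in a comparison in which 8.77% were DE. Whether the ethephon difference itself changed between samplings was tested with an F test over all 8 samplings, which gave an unadjusted p of 0.0252 and an edgeR adjusted p of 0.129. In that test 1.75% of the sequences were DE and no member was. Without replicate 3 of water on day 8 its adjusted p was 0.0458, and without any library of replicate 3 it was 0.00177.

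In order of mean level, miR528a-5p was highest in ethephon at 6 h (1155 ± 507 CPM), followed by ethephon day 8 (1101 ± 765), water day 1 (1098 ± 417), ethephon day 5 (969 ± 216), water 6 h (872 ± 167) and ethephon day 6 (775 ± 351). The 4 lowest groups were ethephon day 4 (310 ± 135), water day 2 (296 ± 146), ethephon day 3 (283 ± 187) and water day 3 (225 ± 87.8). The remaining 6 groups lay between 346 and 605 CPM. The highest mean was 5.13 times the lowest. None of the 15 neighbouring groups in this order differed by more than the larger of their 2 SDs.

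miR528c-3p, the opposite arm in the precursor, was sparse, with 0 to 16 counts per library and a mean of 5.02. A count of 3 in a library corresponded to a median of 52.4 CPM in water and 51.5 CPM in ethephon, and such low counts limit the precision of its levels. It was DE on day 8, when its mean was 236 ± 94.3 CPM in ethephon against 70.8 ± 60.6 CPM in water. Its averaged log2 fold change was 0.18 (SE 0.30, edgeR adjusted p = 0.671) and was not DE. The ethephon mean was higher at 5 of 8 samplings, but on days 1, 2, 3 and 4 the sign of the fitted difference changed with the libraries left out, with ranges of -2.04 to 1.65, -0.12 to 0.97, -1.74 to 0.044 and -1.33 to 0.89.

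On day 8 the ethephon libraries of miR528c-3p held 322, 251 and 135 CPM, from 16, 15 and 8 counts. The water libraries held 42.3, 29.7 and 140 CPM, from 2, 3 and 11 counts. As with the 5p arm, replicates 1 and 2 of ethephon exceeded every water library and replicate 3 of ethephon lay below replicate 3 of water. The log2 fold change was 1.68 (SE 0.64, edgeR adjusted p = 0.0393). It was not DE without replicate 1 (1.41, edgeR adjusted p = 0.143) or replicate 2 (1.62, edgeR adjusted p = 0.0966) of ethephon or without replicate 1 (1.47, edgeR adjusted p = 0.144) or replicate 2 (1.25, edgeR adjusted p = 0.192) of water, and without replicate 3 of water it was 2.71. DESeq2 gave 1.64 with an adjusted p of 0.0623, and edgeR with libraries scaled to their sequencing tags gave 1.42 (adjusted p = 0.132).

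At 6 h the order of the treatments was the opposite for this arm. The water libraries held 149, 212 and 119 CPM, from 12, 11 and 10 counts. The ethephon libraries held 52.8, 115 and 48.4 CPM, from 3, 11 and 4 counts. This was the only one of the 8 samplings at which libraries of miR528c-3p did not overlap, with all 3 ethephon libraries lower, a pattern shown by 10.5% of the 57 sequences at 6 h. The log2 fold change was -1.03 (SE 0.64, edgeR adjusted p = 0.414). The 5p arm at the same sampling had a log2 fold change of 0.40, and the difference between the arms at 6 h was not tested.

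From 6 h to day 6 no member was DE. Beside these days, 10.5% of the sequences were DE at 6 h, 3.51% on day 1, 5.26% on day 2, 14.0% on day 3, 8.77% on day 4, 12.3% on day 5 and 3.51% on day 6. In the edgeR fit to all 48 libraries with the filter, 0 of the tested members had an unadjusted p under 0.05 at any of these samplings. Unadjusted p was lower for miR528a-5p in some other fits, such as 0.00972 on day 1 and 0.00444 on day 6 without the filter and 0.0289 on day 6 in DESeq2. limma-voom called no member on these days, and neither did DESeq2, which gave no adjusted p for miR528c-3p on day 3. The log2 fold changes of miR528c-3p on these days ran from -1.03 to 1.31 with an SE of 0.64 to 0.98.

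**Figure D2:**
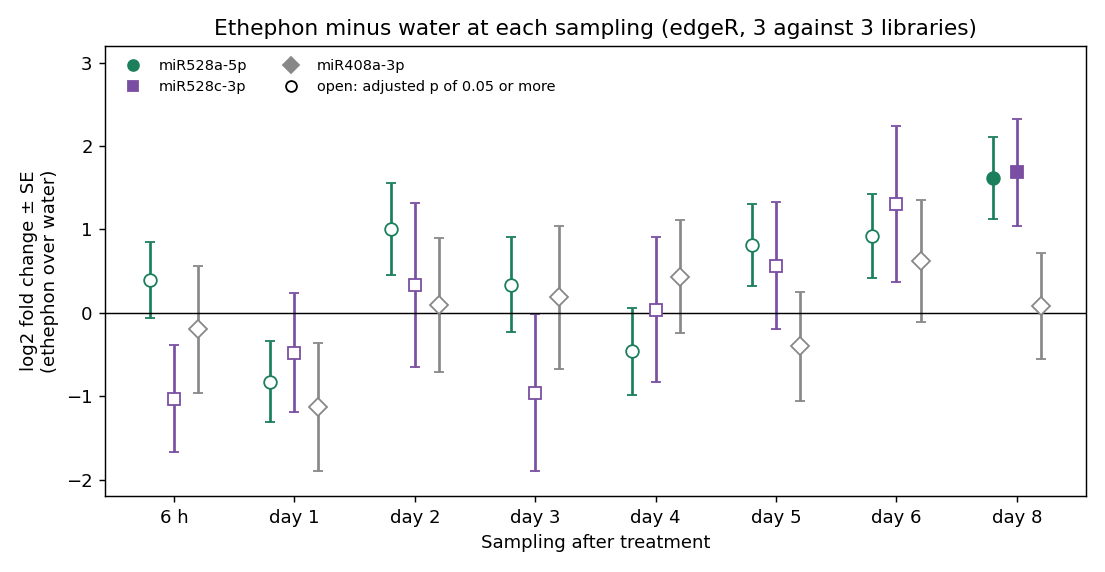
Log2 fold change of ethephon over water with its SE at each sampling for miR528a-5p (circles), miR528c-3p (squares) and miR408a-3p (diamonds), from the edgeR fit to all 48 libraries, with 3 libraries per group. Filled symbols are DE. Both arms of miR528 were DE on day 8, at 1.61 and 1.68, where miR408a-3p was at 0.08.

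Over samplings miR528c-3p changed in ethephon (F test, edgeR adjusted p = 0.0197) and did not pass the test in water (edgeR adjusted p = 0.104). The ethephon call was not made without replicate 1 (edgeR adjusted p = 0.114) or replicate 2 (edgeR adjusted p = 0.0709) of day 8, and the water change passed without replicate 3 of day 1 (edgeR adjusted p = 0.0353). The change of the ethephon difference between samplings gave an edgeR adjusted p of 0.253. From day 1 to day 8 the log2 change was -0.90 (SE 0.71, edgeR adjusted p = 0.492) in water and 1.26 (SE 0.64, edgeR adjusted p = 0.244) in ethephon. The highest group means were ethephon day 8 (236 CPM), water 6 h (160 ± 47.2 CPM) and water day 1 (144 ± 183 CPM), the last from 354, 59.4 and 18.9 CPM in its libraries. The lowest was ethephon day 3 (27.3 ± 17.7 CPM), and the highest mean was 8.65 times this value. Only 1 of the 15 neighbouring groups differed by more than the larger SD, water day 2 (42.6 ± 7.33 CPM) above water day 6 (30.8 ± 9.88 CPM), whose libraries held 4, 2 and 2 counts and 1, 2 and 2 counts.

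**Figure D3:**
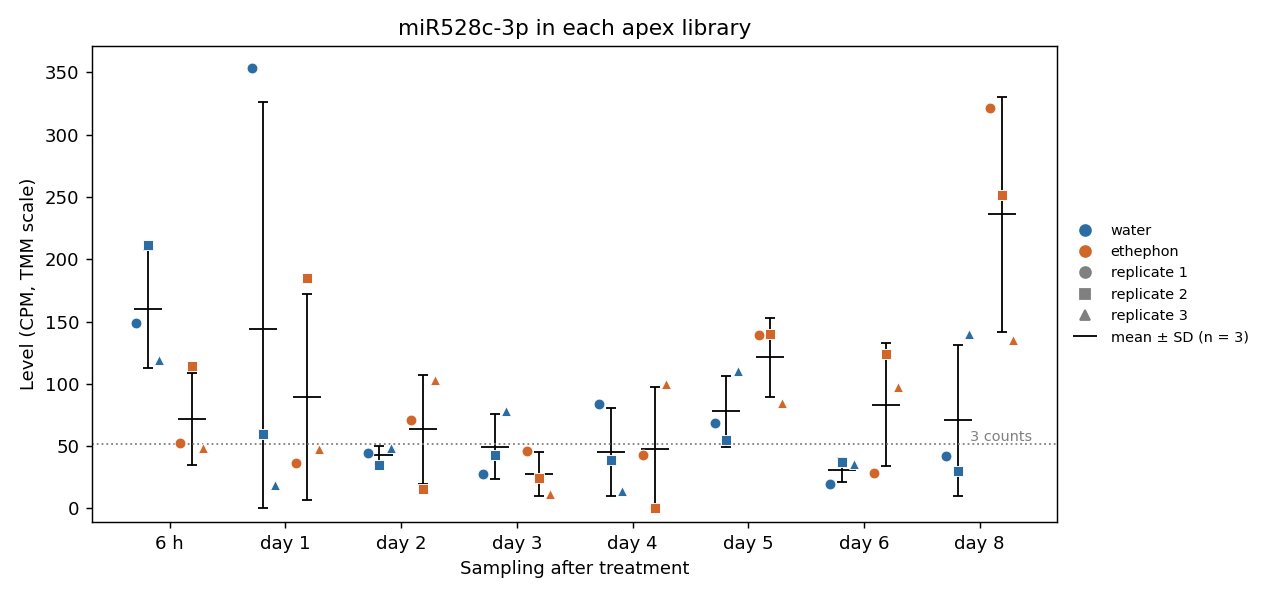
Level of miR528c-3p in CPM on the TMM scale in each library, with water in blue and ethephon in orange, a symbol shape for each replicate number, and black bars for the mean ± SD of 3 libraries, drawn no lower than 0. The dotted line is the median CPM of 3 counts, and the ethephon libraries of day 8, at 135 to 322 CPM, are all above it.

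The arms of miR528 went up and down together across libraries. Over the 48 libraries the log2 CPM of miR528a-5p and miR528c-3p had a Pearson r of 0.657 (permutation p = 1e-05, adjusted p = 5e-05, where 1e-05 is the smallest p that the permutations can give) and a Spearman rho of 0.665 (permutation p = 1e-05, adjusted p = 5e-05). Within water r was 0.668 (n = 24, permutation p = 0.0003, adjusted p = 0.000429) and rho 0.587, and within ethephon r was 0.646 (n = 24, permutation p = 0.00066, adjusted p = 0.000733) and rho 0.682. After the group means were subtracted, r was 0.531 (permutation p = 0.00019, adjusted p = 0.000317) and rho 0.533. Without the 2 libraries farthest from the median of miR528a-5p, r was 0.628. These 10 coefficients form the family over which p was adjusted. The permutations shuffled libraries across groups. Libraries of a group share its sampling, and deviations from its mean are tied to each other, so these p values may be too small. Both arms of a library share its total and its TMM factor, and the part of these in the relation was not tested.

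**Figure D4:**
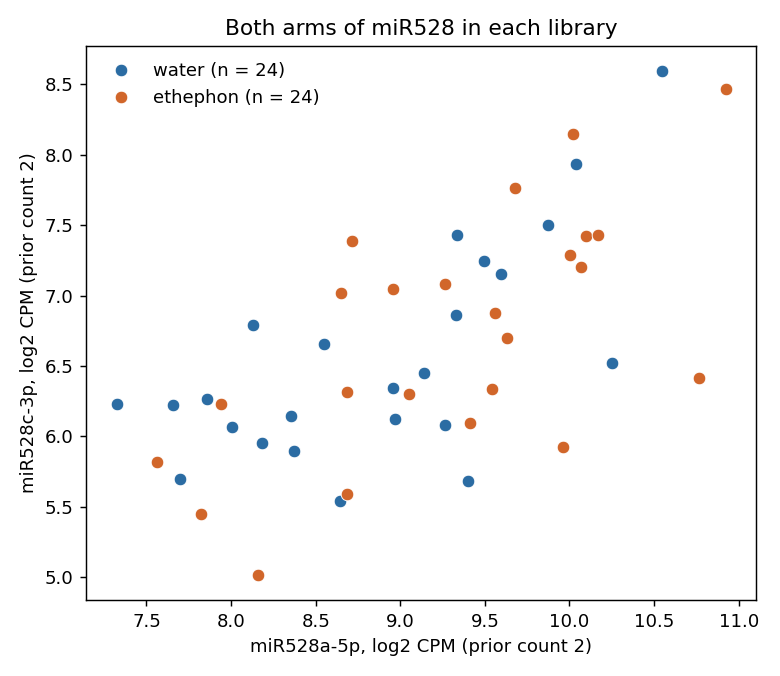
Log2 CPM (prior count 2) of miR528c-3p against that of miR528a-5p in each of the 48 libraries, water in blue and ethephon in orange, each point a library. Libraries with more of the 5p arm had more of the 3p arm, with r of 0.668 in water and 0.646 in ethephon.

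The 5p arm outnumbered the miR528c-3p arm in every group. The ratio of their summed counts was 7.39 over all libraries, 6.71 in water and 8.02 in ethephon. By group it ran from 4.00 in water day 3, with 36 against 9 counts, to 14.2 in ethephon 6 h, with 256 against 18. On day 8 it was 5.12 in water and 4.56 in ethephon. The mean log2 ratio, with 0.5 added to each count, was 0.29 higher in ethephon over 24 against 24 libraries (two-sided permutation p = 0.265), without replicate 3 it was 0.65 higher (permutation p = 0.0353), and without replicate 1 it was on the other side, at -0.098 (permutation p = 0.76). The miR528a-3p sequence, with the same seed as miR528c-3p, had 39 counts against 241. Its largest sums were 11 in ethephon 6 h and 8 in ethephon day 8, the same 2 groups that led the order of the 5p arm.

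miR398a-3p, the arm that acts on superoxide dismutase messages in Arabidopsis, was close to the limit of detection. Its 41 counts fell in 20 of the 48 libraries, with 14 counts in 8 of 24 water libraries and 27 in 12 of 24 ethephon libraries. It had no count in water day 1, water day 8 and ethephon day 6. A count of 0 allows up to 3 counts, which in single libraries were 29.7 to 140 CPM. Being below the filter, it was not part of the 57 tested, and the edgeR fit without the filter could not estimate its averaged difference because of the groups at 0. The permutation test of mean log2 CPM gave 0.22 higher in ethephon (two-sided p = 0.169). With most libraries at 0, this size depends on the prior count of 2. On the scale of all sequencing tags with a prior count of 0.5 it was 0.40 (permutation p = 0.223). In log2 CPM with the prior count of 2, the difference was 0.41 without replicate 1 (permutation p = 0.0261) and 0.03 without replicate 3 (permutation p = 0.875).

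On day 3 the ethephon libraries of miR398a-3p held 6, 4 and 3 counts and the water libraries 0, 2 and 0. This ethephon group was the only one of the 16 with a count in all 3 libraries, and its 13 counts were the largest sum. Its mean was 50.7 ± 17.7 CPM against 14.2 ± 24.6 CPM in water day 3. The day 3 ranges overlapped in CPM, since replicate 2 of water was at 42.6 CPM and replicate 3 of ethephon at 34.3 CPM. The ratio of summed counts, each divided by the group's total, was 4.89 with a 95% exact interval of 1.11 to 44.7, which covers counting error only. This sampling was singled out for its sum after the counts were seen. The edgeR fit without the filter gave its difference an unadjusted p of 0.12 and an adjusted p of 0.458. On day 4 the sums were 5 counts in ethephon and 1 in water, a ratio of 6.36 with an interval of 0.711 to 301, and at 6 h and on days 2 and 5 the ratios were 1.16, 0.979 and 0.451 with intervals that also included 1. On day 1 they were 4 and 0, and on day 6 they were 0 and 4, the latter from a single water library. The remaining groups held 0 to 3 counts each.

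**Figure D5:**
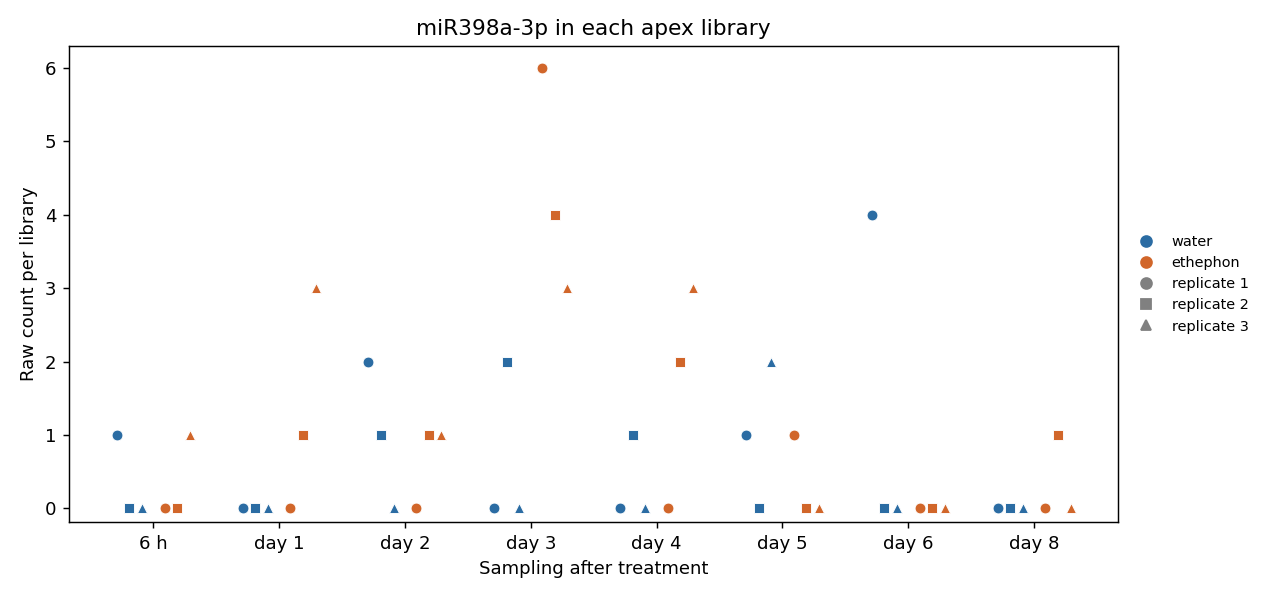
Raw count of miR398a-3p in each library at the 8 samplings, water in blue and ethephon in orange, with a symbol shape for each replicate number. Most libraries are at 0, and the ethephon libraries of day 3, at 6, 4 and 3 counts, form the only group without a library at 0.

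Day 3, the sampling with the highest sum of miR398a-3p, was that with the lowest mean of both miR528 arms in ethephon. Over the 16 groups the mean log2 CPM of miR398a-3p had a Pearson r of -0.55 with miR528a-5p and -0.54 with miR528c-3p, which is a description over sparse counts. The tested miRs most like miR398a-3p over these groups were miR167a-5p (r = 0.63), miR164b-5p (r = 0.58) and miR164a-5p (r = 0.54). Those most like miR528a-5p were miR528c-3p (r = 0.76), miR7782a-5 (r = 0.63) and miR396a-3p (r = 0.57). Those most like miR528c-3p after miR528a-5p were miR399a-3p (r = 0.61) and miR168a-5p (r = 0.53). The points share libraries, and the highest of 56 or 57 values was taken in each case.

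Outside miR528, no sequence of the copper list was DE. The list of miR397, miR398, miR408, miR528 and miR857 held 9 listed sequences, of which 6 had a count and 3 were tested. miR408a-3p, which acts on plantacyanin and laccase messages in Arabidopsis, had 253 counts, close to miR528c-3p. On day 8 it was at 105 ± 56.7 CPM in water and 118 ± 28.9 CPM in ethephon, with a log2 fold change of 0.08 (SE 0.63, edgeR adjusted p = 0.935). Its averaged log2 fold change was -0.04 (SE 0.27, edgeR adjusted p = 0.894), and it was DE in none of the edgeR comparisons, with no unadjusted p under 0.05. The difference between miR408a-3p and the miR528 arms was not tested. miR408a-5p had 22 counts, and miR397a-3p, miR397a-5p and miR398a-5p had none in any library. Within this list 1 of 3 tested rose in the averaged comparison and 2 of 3 on day 8, where both were miR528 arms. None fell in either comparison. The medians, 0.18 and 1.61, were the values of miR528c-3p and miR528a-5p themselves, so these shares describe the miR528 arms and not the other copper families. Of all 57 sequences, 19.3% rose and 22.8% fell in the averaged comparison, and 15.8% rose and 15.8% fell on day 8.

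A string of 10 letters, UGCCUCUUCC, occurred in both miR408a-3p and miR528a-3p, whereas the longest stretch that miR408a-3p and miR528c-3p had in common was 5. For a further list of families (miR444, miR528, miR529, miR535 and miR1432) 12 sequences were listed, 10 had a count and the 2 tested were the miR528 arms. Among the phosphate and sulfate families (miR395, miR399 and miR827) 24 were listed, 11 had a count and 3 were tested. Of these, 0 rose and 1 fell in the averaged comparison, with a median of -0.22, and 0 rose and 1 fell on day 8, with a median of -0.41. With 3 sequences tested, 1 that fell is near the shares of 22.8% and 15.8% over all 57.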

How the data were processed

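Small RNA libraries were sequenced in the study from 48 apex samples. The authors cut adapters, collapsed identical reads and aligned the unique sequences to mature miRs of miRBase. The aligner, the mismatches allowed and the genome positions were not given in the sources used here, so reads of sequences that differ by a few bases, such as the miR528 3p arms, may have been split. The deposited table holds raw counts per sequence, and next to each a rounded score, in which the authors related reads to all tags sequenced in the library. The deposited scores served only to recover the tags of each library. A list of names and sequences, a file of other values, supplied the sequences and shared names.

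Counts were fitted in R 4.3.3 with edgeR 4.0.16 (quasi-likelihood, TMM factors, a mean for each of the 16 groups, all 48 libraries, filterByExpr with a minimum count of 10 and total of 15, common biological coefficient of variation 0.246). p was adjusted by Benjamini-Hochberg over the 57 sequences kept. The SE was obtained from the log2 fold change and its F statistic (size over root F). Levels used a prior count of 2 on the log2 scale, and permutation tests drew 100000 resamples in scipy 1.17.1. With 3 against 3 libraries an exact test cannot go below 0.1, so none was run per sampling. DESeq2 1.42.0, limma 3.58.1, other scalings, no filter, a replicate block and left-out libraries were tried as alternatives. The fits were tested on simulated data. The sequences named were the 3 members, the rest of the copper list, and for each member the 3 tested miRs of highest correlation over group means. Members and lists were chosen with earlier results of these data known. No 2 libraries of a group were duplicates by a chi-square test of their counts, and the methods call the 3 libraries of a group biological replicates.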

Additional observations from a re-analysis of the deposited data

How the results depend on the processing

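Of 767 alternative values computed for 32 results, 718 stayed on the same side of the threshold, 37 lost a call, 12 gained one and none reversed a called direction. A change of sign between values that were not called counted among the 718, as for miR528c-3p on day 1. On the scale of all sequencing tags, miR528a-5p was at 0.34 averaged, 1.28 on day 8 and -1.09 from day 1 to day 8 in water, and miR528c-3p at 1.42 on day 8, none of them DE. limma-voom gave an averaged 0.45 for miR528a-5p (adjusted p = 0.054). For miR528c-3p on day 8, the fit without a filter gave 1.56, DESeq2 1.64 and the replicate block 1.65 (adjusted p = 0.0516), none DE. Without the filter, the change of the miR528a-5p difference between samplings had an adjusted p of 0.000396. With no composition factor, the permutation test of miR528a-5p gave 0.56 (p = 0.0357). The cause of these shifts was not tested.

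Leaving out replicates or single libraries gave, for miR528a-5p, 0.18 to 0.80 averaged, 0.70 to 2.70 on day 8, 0.38 to 1.67 on day 6 (DE only without replicate 3) and -2.61 to -1.09 from day 1 to day 8 in water. Its adjusted p ran from 0.00177 to 0.89 for the change between samplings, from 5.64e-05 to 0.216 over samplings in water and from 0.000221 to 0.149 in ethephon. For miR528c-3p the values were 1.15 to 3.01 on day 8, 0.61 to 2.45 from day 1 to day 8 in ethephon and -2.51 to 1.02 in water, with an adjusted p of 0.0101 to 0.131 over samplings in ethephon and 0.0353 to 0.329 in water. The permutation tests gave 0.15 to 0.75 for miR528a-5p, 0.0313 to 0.41 for miR398a-3p and -0.10 to 0.65 for the ratio of the arms, the last chosen after seeing the data. Each of these edgeR fits kept at least 2 libraries in every group, and the groups shared an estimate of the spread.

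Replicate numbers showed no steady pairing of the libraries, though deviations within groups of 3 are too imprecise to exclude one. Of 24 same-numbered pairs of water and ethephon, 7 had a correlation of deviations over 0.1 (range -0.382 to 0.356). The replicate block gave miR528a-5p 0.44 averaged and 1.52 on day 8 and changed no call of the members other than that of miR528c-3p on day 8. The count of DE sequences differed by more than 1.5 times between settings for the change between samplings (1, up to 10), for water over samplings (27, down to 13), for day 8 against day 1 in ethephon (5, down to 1) and water (11, down to 7), at 6 h (6, down to 1), on day 1 (2, 1 to 4), day 2 (3, up to 5), day 3 (8, down to 1), day 4 (5, down to 0), day 5 (7, 3 to 14), day 6 (2, down to 0) and day 8 (18, down to 10). Depth limited miR528c-3p, with a median of 3 counts per library, and miR398a-3p, with a median of 0.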

Other observations

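In the last 3 samplings, replicate 3 stood opposite in the treatments for miR528a-5p. On days 5, 6 and 8 replicate 3 was the highest of the water libraries, at 742, 584 and 612 CPM, and the lowest of the ethephon libraries, at 721, 370 and 388 CPM. On day 8 miR528c-3p had the same order, at 140 CPM in water and 135 CPM in ethephon. The study's methods describe 3 replications of the plot, and the labels do not tie the replicate numbers of the libraries to them. No test was made of this pattern.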
